A study of Mus musculus with 21 samples.

Results

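The AP-1 and immediate early transcription factors described here were 10 genes, *Fos*, *Fosb*, *Jun*, *Junb*, *Jund*, *Fosl1*, *Fosl2*, *Egr1*, *Atf3* and *Ier2*, of 34236 gene names in the deposited count table. They were taken by gene symbol, each from a single line of the table, and the rule used no measured value. All 10 were found, and their levels were read in all 21 libraries of sorted mouse kidney macrophages. Across the libraries the 10 genes together took between 0.689% and 2.18% of the assigned counts.

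AP-1 is a dimer of basic leucine zipper proteins, in which a Jun protein pairs with a Fos protein, another Jun or a relative such as *Atf3*, and the dimer binds short TGA(N)TCA sites in promoters and enhancers. Many of these genes, *Fos*, *Fosb*, *Jun*, *Junb*, *Egr1*, *Atf3* and *Ier2* among them, are early response genes that growth factors, cytokines and stress switch on quickly through MAP kinases and serum response factor, while *Fosl1* and *Fosl2* tend to follow later and *Jund* is expressed more constantly. In macrophages the early ones belong to the first wave of transcription after activation, and enzymatic digestion and sorting of a tissue can by themselves raise several of them.

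The macrophages came from male C57BL/6J mice aged 24 weeks that had undergone renal artery stenosis (RAS), in which a cuff narrows the artery of 1 kidney and makes it ischemic, or a Sham operation. F4/80+CD64+ cells were sorted, with a flow sort time of 5 h, into kidney-resident macrophages (KRM, CD11b intermediate and CD11c intermediate) and into 2 populations labelled as monocyte-derived, CD11chiMϕ and CD11cloMϕ, which differ in their surface CD11c. There were 4 Sham and 3 RAS libraries of KRM, 3 Sham and 4 RAS libraries of CD11chiMϕ, and 3 Sham and 4 RAS libraries of CD11cloMϕ. Every library passed through digestion and sorting, and the sources used here do not say whether a library held cells of 1 mouse or several, so a p-value measures the spread between these libraries only.

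Library totals ranged from 6891137 to 18592376 counts, and levels are given as CPM, a count scaled to the size of its library with TMM factors. The macrophage markers looked for, of which 8 of 9 were found, had counts in every library. KRM RAS replicates 2 and 3 carried markers of the distal nephron and collecting duct, with summed levels of 4155 and 3087 CPM against 96.3 CPM in KRM RAS replicate 1 and 4.15 to 162 CPM in KRM Sham. The replicate 3 libraries of the Sham groups carried proximal tubule markers, at 14757 CPM in CD11chiMϕ, 6210 CPM in CD11cloMϕ and 2189 CPM in KRM. That of CD11chiMϕ also had distal nephron markers at 1247 CPM, against 1.31 and 7.58 CPM in replicates 1 and 2. Its macrophage markers were at 1497 CPM, against 4700 and 5599 CPM. It held the lowest *Fos*, *Junb*, *Jund*, *Egr1* and *Ier2* of all libraries, and the part of other cells in this was not tested. The column of KRM RAS replicate 1 did not correspond between the deposited count table and the deposited log2 table, with a correlation across 12333 genes of 0.0904 against 0.915 or more for the other libraries.

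Promoter sequence is shown for the 3 tested genes with the largest log2 fold changes between RAS and Sham in KRM, in either direction, because each holds a site searched for. RefSeq start sites on GRCm38.p6 gave a window for 7 of the 10 genes, and the 250 bases before the start were searched on both strands. In these lines the capitals mark the EGR site GCGGGGGCG in *Fosl2* and *Fosb* and, in *Jun*, the site TGACATCA, which differs from the cAMP response element in 1 letter. The *Fosb* window is chr7:19310046-19310295 (minus strand) and the *Jun* window chr4:95052223-95052472 (minus strand), while of *Fosl2* only the site with 10 bases on each side is printed, chr5:32136383-32136411 (plus strand), because GENCODE places it within an exon.
Fosl2: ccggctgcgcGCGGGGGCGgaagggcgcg
Fosb: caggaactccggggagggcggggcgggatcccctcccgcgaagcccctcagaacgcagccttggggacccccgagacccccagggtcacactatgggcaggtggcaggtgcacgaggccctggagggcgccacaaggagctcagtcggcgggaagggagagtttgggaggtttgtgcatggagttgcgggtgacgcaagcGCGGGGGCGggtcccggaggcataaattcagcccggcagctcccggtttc
Jun: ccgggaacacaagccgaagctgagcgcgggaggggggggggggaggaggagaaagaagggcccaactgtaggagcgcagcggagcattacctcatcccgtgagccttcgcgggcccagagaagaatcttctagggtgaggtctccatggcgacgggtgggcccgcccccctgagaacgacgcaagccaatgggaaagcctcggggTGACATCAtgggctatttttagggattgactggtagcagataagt

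The EGR site began at base -79 before the start of *Fosl2* and at base -50 before that of *Fosb*, and 2.57% of 32851 promoters of the same length held it. The TGACATCA site of *Jun* began at base -45, and 2.93% of promoters held it. A GC box, GGGCGG, stood in 5 of the 7 windows against 32.7% of all promoters, and in *Fosb* and *Fosl2* it overlapped the EGR site. None of the 7 windows held the AP-1 site TGANTCA or the cAMP response element TGACGTCA, which 6.75% and 1.55% of promoters held. A match is a match of letters, not a measured binding site.

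The level of each gene in the 6 groups was described first. *Fosl2*, which encodes the Fos relative Fra-2 and lies on chromosome 5 from 32135801 to 32157842 (GENCODE, GRCm38), had the widest range, from 4.85 CPM in KRM Sham replicate 1 to 578 CPM in CD11cloMϕ RAS replicate 2, a 119-fold span. The other 8 genes with counts in every library spanned from 2.32-fold for *Jund* to 9.04-fold for *Fosb*. *Fosl1*, which encodes Fra-1, stayed at or below 12.1 CPM and had no count in 5 libraries.

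In order of group means *Fosl2* stood highest in CD11cloMϕ RAS, followed by CD11chiMϕ RAS, CD11cloMϕ Sham, KRM RAS, CD11chiMϕ Sham and KRM Sham. Neighbours in this order did not overlap at the step from CD11cloMϕ Sham to KRM RAS and at the step from CD11chiMϕ Sham to KRM Sham. For *Fosl1* the step from CD11cloMϕ Sham to CD11chiMϕ Sham was free of overlap. For the other 8 genes every pair of neighbouring groups overlapped, so their order of means is not an order of libraries.

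**Figure D1:**
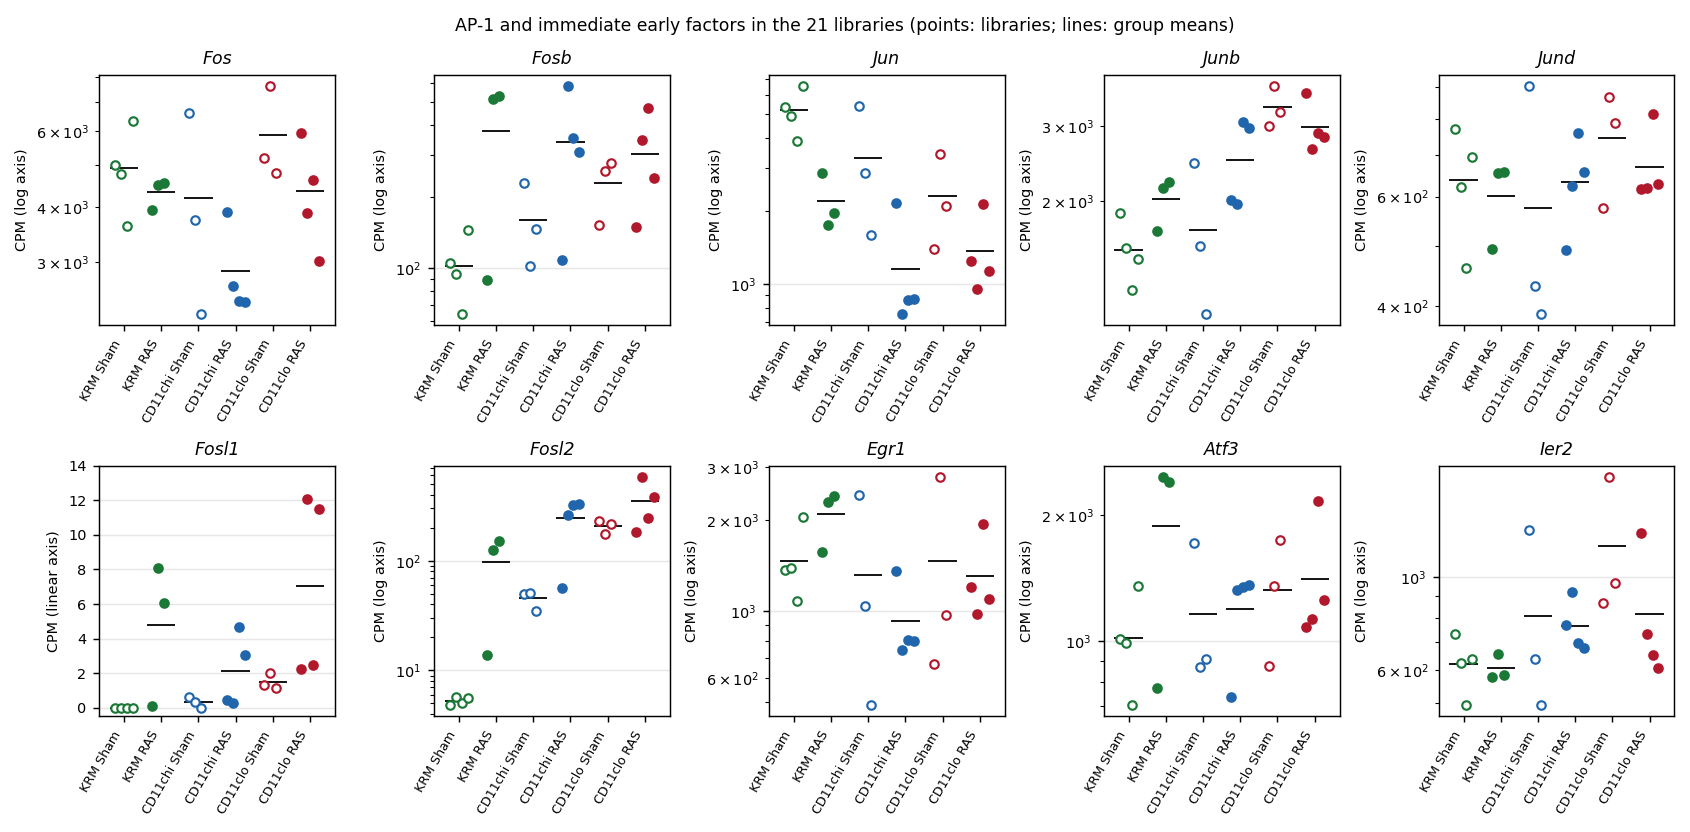
Level of each of the 10 genes in each of the 21 libraries, in CPM on a log axis (linear for *Fosl1*), with open points for Sham, filled points for RAS and a line at each group mean. *Fosl2* lies at 4.85 to 5.76 CPM in KRM Sham and at 126 and 151 CPM in KRM RAS replicates 2 and 3, while *Jun* lies lower in RAS than in Sham in KRM.

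To set genes beside each other, levels per transcript length were read from the deposited log2 table, as log2(TPM + 1), without the column of KRM RAS replicate 1. On this scale *Fos* had the highest mean level of the 10 genes in all 6 groups, from 11.00 in CD11chiMϕ RAS to 12.57 in CD11cloMϕ Sham. In CD11chiMϕ RAS *Junb* was nearly equal, at 10.99. It stood above *Fos* in replicates 3 and 4 of that group, at 11.32 and 11.22 against 10.68 in both. *Fosb*, *Fosl2* and *Fosl1* ranked 8, 9 and 10 in every group.

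The place of *Jun*, the founding Jun protein and main partner of *Fos*, changed between groups. Its mean log2(TPM + 1) level was 11.45 in KRM Sham, rank 2 behind *Fos*, and 10.13 in KRM RAS, rank 5. In CD11chiMϕ it ranked 2 in Sham, at 10.53, and 6 in RAS, at 8.92. In CD11cloMϕ it ranked 4 in Sham and 5 in RAS, at 10.05 and 9.30. *Junb*, a Jun protein that can restrain *Jun*, ranked 2 or 3 in every group, and *Atf3*, a stress-induced factor that often acts as a repressor, ranked 2 in KRM RAS at 11.11, from 2 libraries.

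**Figure D2:**
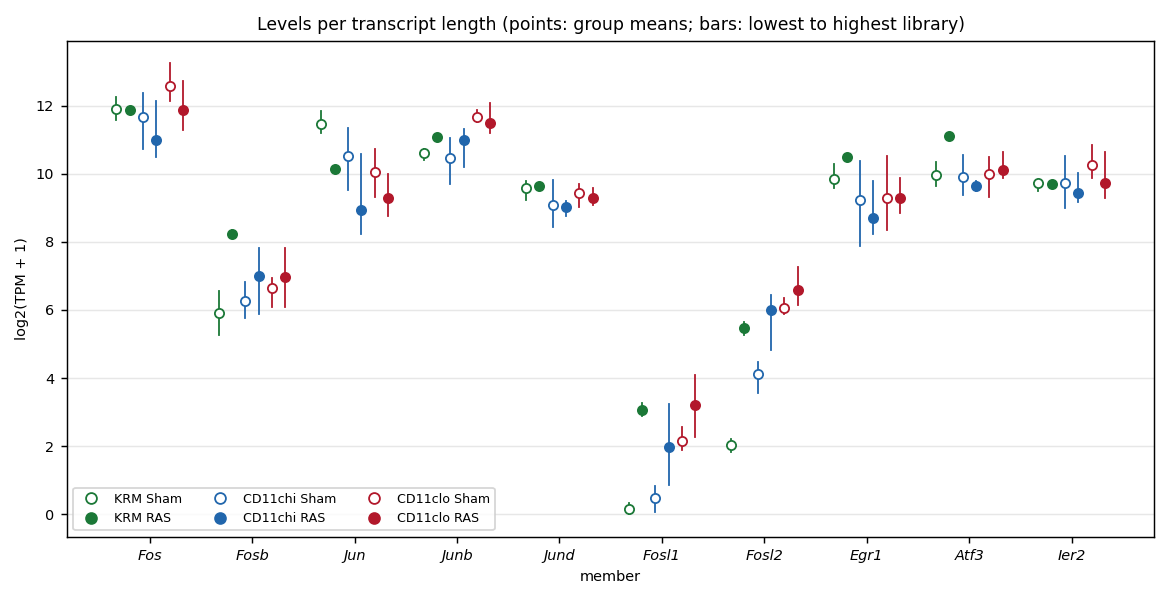
Mean log2(TPM + 1) of each gene in each group, with bars from the lowest to the highest library, open for Sham and filled for RAS, leaving out KRM RAS replicate 1. *Fos* has the highest mean in each group, with *Junb* nearly equal to it in CD11chiMϕ RAS. *Fosl2* ranges from 2.05 in KRM Sham to 6.59 in CD11cloMϕ RAS.

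The study asked how each macrophage population responds to stenosis, and in KRM *Fosl2* rose and *Jun* fell among these genes. *Fosl2* was at 4.85, 5.76, 5.02 and 5.56 CPM in the 4 KRM Sham libraries, in order of replicate number, and at 13.7, 126 and 151 CPM in the 3 KRM RAS libraries. All RAS libraries lay above all Sham libraries, but replicate 1 stood far below the others. On the log2 scale the change was 4.21 (standard error, SE, 0.695, adjusted p = 0.0228, edgeR's quasi-likelihood test with Benjamini-Hochberg adjustment), on counts of 41 to 100 in Sham and 139 to 1564 in RAS.

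*Jun* was at 5373, 4946, 3890 and 6551 CPM in KRM Sham and at 2858, 1757 and 1954 CPM in KRM RAS. The groups did not overlap, and replicate 1 was again the RAS library nearest to Sham. RAS over Sham came to -1.22 in log2 units (SE 0.254, adjusted p = 0.0326, edgeR). *Jun* lies on chromosome 4 from 95049034 to 95052222.

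*Fosb*, on chromosome 7 from 19302696 to 19310051, encodes a Fos protein whose induction outlasts that of *Fos*. It was at 106, 95.1, 64.5 and 145 CPM in KRM Sham and at 89.2, 514 and 528 CPM in KRM RAS. RAS replicates 2 and 3 stood above every Sham library and replicate 1 stood within their range. Its log2 fold change of 1.90 (SE 0.555) did not pass the adjusted threshold of 0.05 (adjusted p = 0.0654, edgeR), and it did under DESeq2 (adjusted p = 0.00337).

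*Fosl1*, on chromosome 19 from 5447547 to 5455946, had 0 counts in all 4 KRM Sham libraries, which allows up to 0.355 CPM in the shallowest of them, and 0.0989, 8.10 and 6.08 CPM in KRM RAS. In RAS replicate 1 this was 1 count, against 88 and 63 counts in the others. The mean of KRM RAS was at least 13.4-fold higher than that limit, a value that rests on replicates 2 and 3, and the gene did not pass the filter on low counts for this test.

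*Atf3* was at 1014, 993, 706 and 1357 CPM in KRM Sham and at 774, 2462 and 2402 CPM in KRM RAS. *Egr1*, a zinc finger factor that binds GC-rich sites, was at 1368, 1392, 1078 and 2053 CPM in KRM Sham and at 1571, 2309 and 2405 CPM in KRM RAS. *Junb* was at 1879, 1554, 1240 and 1465 CPM in KRM Sham and at 1706, 2148 and 2215 CPM in KRM RAS. In each of the 3 genes RAS replicates 2 and 3 stood above every Sham library and replicate 1 within their range. The log2 fold changes were 0.91 for *Atf3*, 0.53 for *Egr1* and 0.42 for *Junb*, with adjusted p-values of 0.152, 0.175 and 0.148 from edgeR.

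The remaining 3 genes had estimates close to 0 in KRM. The 95% intervals here and below are normal approximations from the SE, and with so few libraries they are narrower than the test allows. The log2 fold change of *Fos* was -0.16 (95% interval -0.56 to 0.24), that of *Jund*, the most constant Jun protein of resting cells, was -0.06 (-0.46 to 0.34), and that of *Ier2*, a small nuclear immediate early protein, was -0.02 (-0.32 to 0.29). *Jund* and *Ier2* had the opposite sign when counts were scaled to the library total alone, at 0.03 and 0.07.

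Of the 9 genes tested in KRM, 1 was called higher and 1 lower, against 9.7% of all genes called (1247 of 12852), 998 higher and 249 lower. The median log2 fold change of the 9 was 0.42 and that of all genes 0.02. Without any 1 of KRM Sham replicates 1, 2 and 4 or KRM RAS replicates 2 and 3, no member was called, and between 28 and 43 genes were called in all. The log2 fold changes were then 3.72 to 4.25 for *Fosl2* (adjusted p from 0.0701 to 0.0917, edgeR) and -1.24 to -1.09 for *Jun* (adjusted p from 0.0925 to 0.125). Without KRM Sham replicate 3 both calls were kept, among 1336 genes. Without KRM RAS replicate 1, 6 members were called, *Fosb* at 2.32, *Atf3* at 1.23, *Egr1* at 0.65 and *Junb* at 0.48 beside *Fosl2* and *Jun*, among 7070 of 14088 genes.

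Levels of other cell types' markers moved with these genes in KRM. RAS replicates 2 and 3, which had the highest *Fosl2*, *Fosb*, *Fosl1* and *Atf3* of KRM, were the libraries with distal nephron markers at 4155 and 3087 CPM. Summed markers of fibroblasts and pericytes were at 377 and 464 CPM in them, against 41.8 CPM in RAS replicate 1 and 19 to 39.97 CPM in Sham. Endothelial markers were at 208 and 175 CPM against 10.2 to 30.5 CPM in the other KRM libraries, and podocyte markers at 60.4 and 56.5 CPM against 0.710 CPM or less. Macrophage markers were at 3260 and 4075 CPM, against 5838 CPM in RAS replicate 1 and 6569 to 7063 CPM in Sham. Other lists separated all RAS from all Sham libraries of KRM. Markers of T and NK cells were at 310, 41.0 and 36.2 CPM in RAS replicates 1 to 3 against 2.16 to 3.08 CPM in Sham, red blood cell markers at 743, 296 and 253 CPM against 86.0 to 185 CPM, and dendritic cell markers at 126, 264 and 187 CPM against 84.5 to 105 CPM. B and plasma cell markers were lower, at 66.8, 30.3 and 28.9 CPM in RAS against 82.1 to 126 CPM in Sham. In T and NK cell and red blood cell markers RAS replicate 1, the RAS library with the least *Fosl2*, was the highest. The part of any of these cells in the levels of the members was not tested. In bulk libraries, fewer cells of a type and less RNA per cell cannot be told apart.

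**Figure D3:**
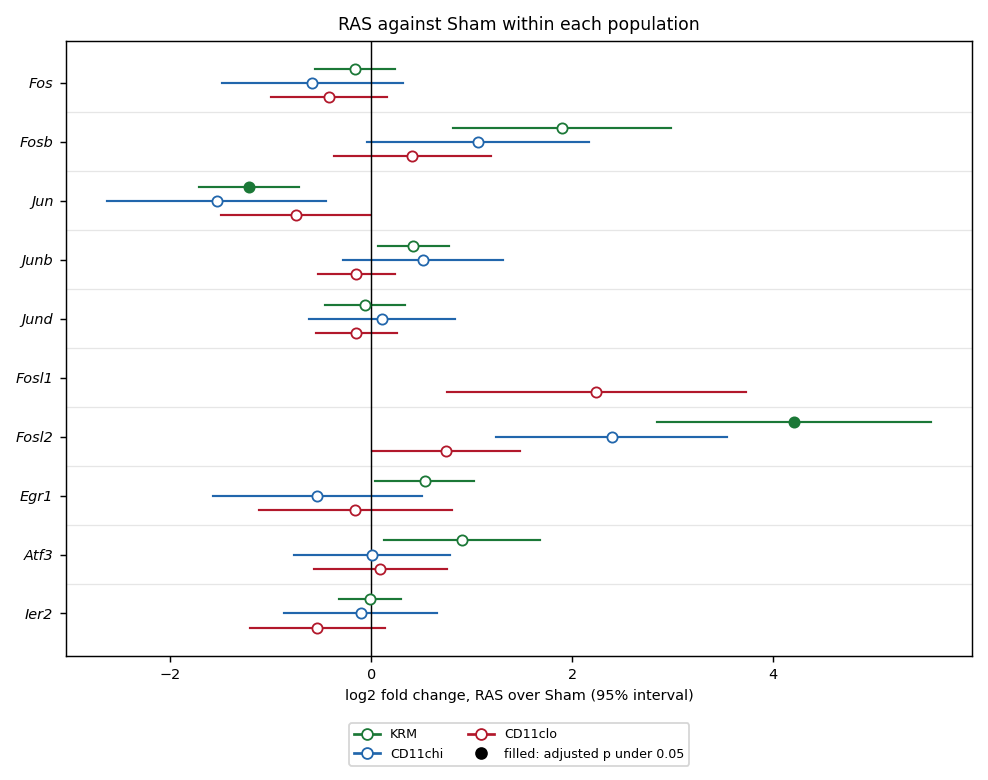
Log2 fold change of RAS over Sham for each gene in KRM, CD11chiMϕ and CD11cloMϕ, with approximate 95% intervals, filled where the adjusted p was under 0.05. The intervals are narrower than the test allows. *Fosl2* at 4.21 and *Jun* at -1.22 in KRM are the 2 filled points, and *Fosl1* is drawn only for CD11cloMϕ, where it was tested.

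In CD11chiMϕ no gene was called, and the largest estimates among the members were those of *Fosl2* and *Jun*. *Fosl2* was at 50.1, 51.4 and 34.9 CPM in Sham and at 56.5, 264, 326 and 331 CPM in RAS. The groups did not overlap, with RAS replicate 1 just above the highest Sham library. The estimate in log2 units was 2.39 (SE 0.587, unadjusted p = 0.00344 and adjusted p = 0.508, edgeR). Without RAS replicate 1 it was 2.72 with an adjusted p of 0.0296, and under DESeq2 the adjusted p was 0.00566.

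*Jun* was at 5432, 2857 and 1589 CPM in CD11chiMϕ Sham and at 2151, 756, 857 and 871 CPM in RAS. RAS replicates 2 to 4 stood below every Sham library, and RAS replicate 1 stood between Sham replicates 2 and 3. The estimate for *Jun* was -1.54 in log2 units (SE 0.555, adjusted p = 0.508, edgeR).

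*Fosb* was at 228, 102 and 147 CPM in CD11chiMϕ Sham and at 108, 584, 352 and 308 CPM in RAS, with RAS replicate 1 near the lowest Sham library. Its log2 fold change was 1.07 (95% interval -0.04 to 2.17). *Fosl1* was at 0.605, 0.316 and 0 CPM in Sham and at 0.474, 0.30, 4.67 and 3.08 CPM in RAS, and of the RAS libraries replicates 3 and 4 alone stood above Sham. *Atf3* was at 1718, 868 and 908 CPM in Sham and at 738, 1328, 1347 and 1360 CPM in RAS, with overlap and a log2 fold change of 0.00 (95% interval -0.77 to 0.78).

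Among 12739 genes tested in CD11chiMϕ edgeR called 0, or 0%, with 1247 at an unadjusted p under 0.05, and DESeq2 called 196. Of the 9 members tested 0 were called, 2 had an unadjusted p under 0.05, and their median log2 fold change was 0.00 against -0.09 over all genes. Summed dendritic cell markers ranged from 369 to 1762 CPM in CD11chiMϕ Sham and were 1016, 1874, 4727 and 5099 CPM in the RAS libraries, in order of replicate number. Fibroblast and pericyte markers were at 19 to 24.4 CPM in Sham and at 30.6, 290 and 82.0 CPM in RAS replicates 1 to 3 and 125 CPM in replicate 4, and the RAS library with the least was the one with the least *Fosl2*. T and NK cell markers were at 8.57, 2.63 and 25.8 CPM in Sham and at 223, 115, 58.8 and 65.7 CPM in RAS, without overlap and highest in RAS replicate 1. The part of any of these lists in the level of *Fosl2* was not tested.

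In CD11cloMϕ no gene was called either. *Fosl2* was at 233, 174 and 217 CPM in Sham and at 184, 578, 244 and 385 CPM in RAS. RAS replicate 1 lay within the Sham range and the other 3 above it. The log2 fold change was 0.74 (95% interval 0.00 to 1.48, unadjusted p = 0.0843 and adjusted p = 0.582, edgeR).

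*Fosl1* was at 1.34, 2.00 and 1.14 CPM in CD11cloMϕ Sham and at 2.21, 12.1, 2.46 and 11.5 CPM in RAS. The groups did not overlap, and RAS replicates 2 and 4, which also held the most *Fosl2*, stood apart. This gave 2.24 in log2 units (SE 0.758, adjusted p = 0.553, edgeR). *Jun* was at 1402, 3426 and 2106 CPM in Sham and at 1240, 952, 2129 and 1128 CPM in RAS. Its log2 fold change was -0.75 (95% interval -1.49 to -0.01, unadjusted p = 0.0823 and adjusted p = 0.580, edgeR).

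Markers of other cells also differed among the CD11cloMϕ libraries. Neutrophil markers summed to 339 to 803 CPM in Sham and to 699, 1695, 1859 and 3033 CPM in RAS, in order of replicate number. Fibroblast and pericyte markers summed to 18 to 76.6 CPM in Sham and to 4.96, 383, 131 and 148 CPM in RAS. T and NK cell markers summed to 0.616 to 5.01 CPM in Sham and to 31.9, 8.76, 14.9 and 18.8 CPM in RAS, without overlap. Endothelial markers, at 28.6 to 51.5 CPM in Sham and 62.2, 61.7, 93.0 and 276 CPM in RAS, did not overlap either. Nor did macrophage markers, at 4085 to 4584 CPM in Sham and 4681 to 7251 CPM in RAS. RAS replicate 1, lowest in neutrophil and in fibroblast and pericyte markers among the RAS libraries, was also lowest in *Fosl2* and *Fosl1*, and the part of these cells in the result was not tested.

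The other 7 genes in CD11cloMϕ had log2 fold changes between -0.54 for *Ier2* and 0.41 for *Fosb*, and none was called. Without CD11cloMϕ Sham replicate 2, at 2781 CPM, the log2 fold change of *Egr1* was 0.67 instead of -0.16. Among 12301 genes tested edgeR called 0, or 0%, with 1102 at an unadjusted p under 0.05, and DESeq2 called 102. Of the 10 members 1 had an unadjusted p under 0.05, and their median log2 fold change was -0.15 against -0.02 over all genes.

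Whether the responses differed between populations was tested as an interaction. For KRM minus CD11cloMϕ the difference in the log2 response of *Fosl2* was 3.40 (SE 0.802, adjusted p = 0.0752, edgeR), and no member was called, against 0.245% of all genes called (34 of 13877). It passed the threshold under DESeq2 (3.46, adjusted p = 0.00135) and without KRM RAS replicate 1 (3.89, adjusted p = 0.000759). *Fosl1* passed in both of these settings, and *Fosb*, at 1.85, without that library. Among all genes 1404 were called under DESeq2 and 2357 of 14638 without that library.

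For KRM minus CD11chiMϕ the difference of *Fosl2* was 1.75 (95% interval -0.02 to 3.53, adjusted p = 0.288, edgeR), with 0 of 14137 genes called, or 0%, 2999 at an unadjusted p under 0.05 and 1264 called by DESeq2. For CD11chiMϕ minus CD11cloMϕ it was 1.71 (95% interval 0.29 to 3.13, adjusted p = 0.735, edgeR), with 0 of 13540 genes called, or 0%, 900 at an unadjusted p under 0.05 and 15 called by DESeq2. The difference of *Jun* was -0.52 for KRM minus CD11cloMϕ, 0.27 for KRM minus CD11chiMϕ and -0.74 for CD11chiMϕ minus CD11cloMϕ, each with an interval that included 0. By edgeR on all libraries a difference in response was thus not detectable for any member.

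Within a library the ratio of *Jun* to *Fosl2* counts does not depend on how libraries are scaled to each other. It was 1108, 859, 774 and 1177 in the KRM Sham libraries and 208, 14 and 12.9 in the KRM RAS libraries. In CD11chiMϕ it was 108, 55.6 and 45.5 in Sham and 38.1, 2.86, 2.63 and 2.63 in RAS. In both populations every RAS library lay below every Sham library, and RAS replicate 1 lay nearest to Sham. In KRM each gene alone already separated the groups, so this separation followed from the values above and adds no support. In CD11cloMϕ the ratio was 6.02, 19.6 and 9.69 in Sham and 6.74, 1.65, 8.73 and 2.93 in RAS, which overlapped. These ratios compare counts, which also depend on transcript length, so only their change between libraries can be read.

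**Figure D4:**
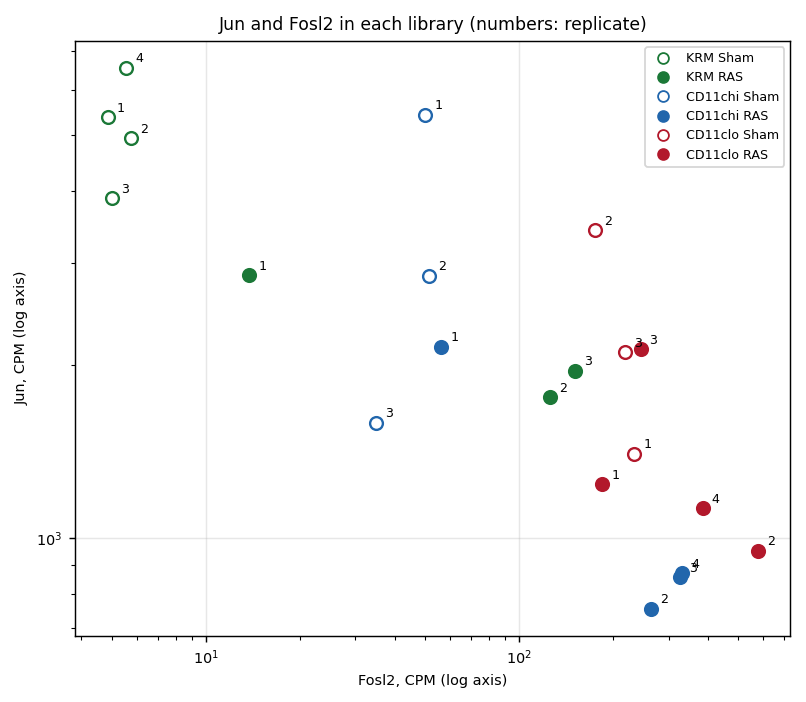
*Jun* against *Fosl2* in each of the 21 libraries, in CPM on log axes, open for Sham and filled for RAS, with the replicate number beside each point. KRM Sham libraries lie at the upper left, with *Fosl2* at or below 5.76 CPM, and CD11chiMϕ RAS replicates 2 to 4 at the lower right.

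Populations were then compared within Sham kidneys, where *Fosl2* gave the largest difference in each comparison among the 9 genes other than *Fosl1*, which had no count in KRM Sham. With the values above, KRM Sham (4.85 to 5.76 CPM), CD11chiMϕ Sham (34.9 to 51.4 CPM) and CD11cloMϕ Sham (174 to 233 CPM) formed 3 separate ranges. KRM was lower than CD11chiMϕ with a log2 difference of -3.11 (SE 0.190, adjusted p = 0.00205, edgeR). It was lower than CD11cloMϕ, at -5.27 (SE 0.151, adjusted p = 8.5e-07). CD11chiMϕ was lower than CD11cloMϕ, at -2.12 (SE 0.222, adjusted p = 0.0208).

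The call of the 2 comparisons with KRM held without each library in turn, and that between CD11chiMϕ and CD11cloMϕ did not: without any 1 library other than CD11chiMϕ replicate 3 its adjusted p was 0.0750 to 0.181 and 0 genes were called in all. The replicate 3 libraries, which carried proximal tubule markers, did not stand apart in *Fosl2* in KRM or CD11cloMϕ, and in CD11chiMϕ replicate 3 was the lowest, at 34.9 CPM.

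Against CD11chiMϕ, KRM differed in no other tested member: 1 of 9 was called, against 5.12% of all genes (635 of 12404). In a fit with a replicate block *Fosl2* was called, at an adjusted p of 0.0359, among 89 genes in all. The 95% intervals of the log2 difference ran from -1.32 to 0.02 for *Fosb*, from -0.19 to 1.5 for *Jun* and from -0.77 to 0.44 for *Junb*. For *Egr1* the interval ran from -0.84 to 1.16, since CD11chiMϕ Sham ranged from 489 to 2423 CPM. The median log2 fold change of the 9 was -0.16, against -0.07 over all genes.

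Against CD11cloMϕ, KRM differed in 6 of the 10 members, 1 higher and 5 lower, against 41.8% of all genes called (5178 of 12399). *Jun* was the one that was higher in KRM, by 1.19 (SE 0.314, adjusted p = 0.0167, edgeR), with KRM at 3890 to 6551 CPM and CD11cloMϕ at 1402 to 3426 CPM. *Junb* was lower in KRM by -1.09 (SE 0.171, adjusted p = 0.00142), at 1240 to 1879 CPM against 2994, 3727 and 3233 CPM in CD11cloMϕ. *Fosb* was lower by -1.13 (SE 0.280, adjusted p = 0.0128), at 64.5 to 145 CPM against 152, 255 and 277 CPM.

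*Ier2* was lower in KRM than in CD11cloMϕ by -0.92 (SE 0.257, adjusted p = 0.0212, edgeR), at 729, 622, 495 and 637 CPM against 867, 1733 and 966 CPM. Without CD11cloMϕ replicate 2, the highest, its log2 fold change was -0.52 (adjusted p = 0.0600), and its call was also lost without KRM replicate 2, 3 or 4. *Fosl1* was called too, with CD11cloMϕ libraries at 1.14 to 2.00 CPM. Their mean, 1.49 CPM, was 4.20-fold higher than the level that 3 counts would give in the shallowest KRM library. With 1 fit over all 6 groups *Fosb*, *Jun* and *Ier2* lost their calls, at adjusted p-values of 0.165, 0.0626 and 0.0522.

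*Fos*, *Jund*, *Egr1* and *Atf3* were not called between KRM and CD11cloMϕ, with log2 fold changes of -0.24, -0.20, 0.01 and -0.35. CD11cloMϕ Sham was uneven in *Egr1*, at 668, 2781 and 969 CPM, and without replicate 2 the difference was 0.90 (adjusted p = 0.0447). The median log2 fold change of the 10 members was -0.63, against -0.04 over all genes.

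Between CD11chiMϕ and CD11cloMϕ *Fosl2* was the 1 member of 9 called, against 1.52% of all genes (184 of 12105). *Junb* was lower in CD11chiMϕ without overlap, at 2463, 1572 and 1089 CPM against 2994 CPM or more. Its log2 fold change was -0.89 (95% interval -1.65 to -0.13, unadjusted p = 0.0595 and adjusted p = 0.305, edgeR). The interval of *Jun* ran from -0.53 to 1.67 and that of *Fos* from -1.42 to 0.58. The replicate block left the member count as it was and moved the count of all genes called to 595.

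**Figure D5:**
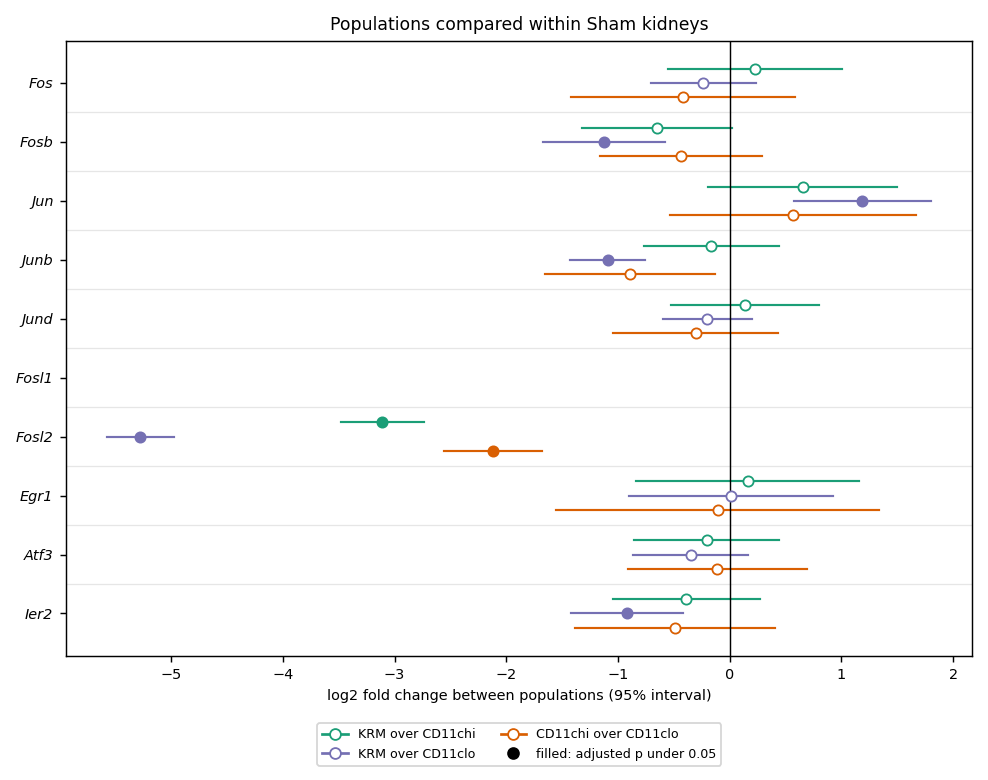
Log2 fold change between populations within Sham kidneys for each gene, with approximate 95% intervals, filled where the adjusted p was under 0.05, leaving out *Fosl1*, which had no counts in KRM. The intervals are narrower than the test allows. *Fosl2* lies at -5.27, -3.11 and -2.12, apart from the other genes, and *Jun* is the filled point to the right of 0.

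Genes around AP-1 were described by lists. Among 27 other immediate early and ERK or serum response genes, 26 were tested in KRM and 11 were called higher and 2 lower in RAS, where 9.7% of all genes were called, 998 higher and 249 lower of 12852. Their median log2 fold change was 0.87 against 0.02 over all genes. The largest changes were those of *Nr4a2*, an orphan nuclear receptor, at 4.83 (adjusted p = 0.0231, edgeR), *Ier3*, a regulator of cell survival, at 3.64 (adjusted p = 0.0254), and *Dusp5*, a phosphatase of ERK, at 3.63 (adjusted p = 0.0101). *Dusp5* rose from 6.36 ± 2.01 CPM (SD, n = 4) to 77.8 ± 32.8 CPM (SD, n = 3).

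*Dusp5* was also called in the difference in response between KRM and CD11cloMϕ, at 3.47 (adjusted p = 0.0251, edgeR), the 1 gene of that list to be so. Without KRM Sham replicate 1, 2 or 3, and without all libraries numbered 3, 0 genes were called in that test, so this call was lost in each of these settings. In Sham kidneys *Dusp5* and *Nr4a1* were lower in KRM than in CD11chiMϕ, by -3.99 and -2.64, and than in CD11cloMϕ, by -5.21 and -4.01. Of the 26 genes of the list tested between KRM and CD11cloMϕ, 5 were called higher and 16 lower in KRM, with a median of -1.62 against -0.04 over all genes. In that comparison 41.8% of all genes were called, 2413 higher and 2765 lower of 12399.

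Among 16 textbook AP-1 target genes, 14 were tested in KRM and 6 were called higher and 1 lower in RAS, against 9.7% of all genes called, with a median of 1.04 against 0.02 over all genes. *Vegfa*, the endothelial growth factor, rose by 3.95 (adjusted p = 0.0342, edgeR), *Mt2*, a metallothionein, by 3.10 (adjusted p = 0.0358), and *Plaur*, the urokinase receptor, by 2.84 (adjusted p = 0.0160). *Plaur* and *Mmp9*, a gelatinase, were lower in KRM than in CD11cloMϕ in Sham kidneys, by -6.06 and -7.86, while *Mmp13*, a collagenase, was higher by 6.64.

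Of the kinases and factors that feed AP-1, 25 were tested in KRM and 1 was called higher and 0 lower, against 9.7% of all genes called, with a median of 0.04 against 0.02 over all genes. The called gene was *Srf*, serum response factor, at 0.90 (adjusted p = 0.0413, edgeR), from 18.9 ± 2.63 CPM (SD, n = 4) to 34.9 ± 9.15 CPM (SD, n = 3). In Sham kidneys 14 of the 25 were lower in KRM than in CD11cloMϕ and 0 higher, where 41.8% of all genes were called and 2765 of 12399 were lower. The largest difference was that of *Map2k3*, a kinase of p38, at -1.28 (adjusted p = 4.1e-05). Against CD11chiMϕ *Map2k3* was the 1 gene of the 25 called, at -0.62, where 5.12% of all genes were called.

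Of 13 other bZIP factors of the family, 12 were tested between KRM and CD11cloMϕ in Sham kidneys, and 5 were called higher and 4 lower in KRM, against 41.8% of all genes called, with a median of 0.17 against -0.04 over all genes. *Mafk*, a small Maf protein that lacks an activation domain, was lower in KRM, at -1.39 (adjusted p = 0.00229, edgeR), and *Batf2*, an interferon-induced partner of Jun proteins, was higher, at 1.3 (adjusted p = 0.00982). Between KRM and CD11chiMϕ, and between CD11chiMϕ and CD11cloMϕ, edgeR called 0 of the 12, against 5.12% and 1.52% of all genes. At an unadjusted p under 0.05 there were 4 and 1 of the 12, against 24.4% and 17.7% of all genes.

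Heat shock and stress genes, a list of 20 that digestion of tissue is known to raise, were called higher in 2 and lower in 3 cases in KRM RAS, against 9.7% of all genes called, with a median of -0.00 against 0.02 over all genes. *Gadd45a*, a stress-induced growth arrest gene, rose by 3.62 (adjusted p = 0.0425, edgeR) and *Dnajb4*, a heat shock co-chaperone, by 1.66, while *Hspa1b*, the inducible heat shock protein 70, was at -1.53 (adjusted p = 0.0409). *Hspa1b* was at 11041 CPM on average in KRM Sham, 5554 CPM in CD11chiMϕ Sham and 2285 CPM in CD11cloMϕ Sham. *Gadd45a* was instead lower in KRM than in CD11chiMϕ, at -2.16 (adjusted p = 0.0183, edgeR), and than in CD11cloMϕ, at -4.58 (adjusted p = 1e-06). Of the 20 genes 8 were called higher and 5 lower in KRM than in CD11cloMϕ, against 41.8% of all genes called. All libraries were digested, so a level present in the kidney and one raised by digestion cannot be told apart.

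In CD11chiMϕ and CD11cloMϕ no gene of any of these lists was called in RAS by edgeR, as no gene was called at all. At an unadjusted p under 0.05 there were 12 of 27 immediate early genes in CD11chiMϕ and 4 of 27 in CD11cloMϕ, against 9.79% and 8.96% of all genes. The medians of the list were 0.62 and 0.13, against -0.09 and -0.02 over all genes. In KRM, between 28 and 43 genes were called in all without any 1 of 5 of the libraries, as given above. How many genes of these lists kept their calls in those fits was not counted. Markers of distal nephron, podocytes and fibroblasts were at 4155, 60.4 and 377 CPM in KRM RAS replicate 2 and at 3087, 56.5 and 464 CPM in replicate 3. The part of these cells in the levels of the lists was not tested.

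The genes whose level over the 21 libraries was most like the mean of the 10 members, each standardised, were found by Pearson's r on log2 CPM. They were *Ppp1r15a*, a stress-induced phosphatase subunit, with r = 0.81, *Anxa5* and *Mafk* with 0.80 and 0.79, *Cxcl10*, an interferon-induced chemokine, and *Trib1* with 0.78 each, *Tra2b*, *Hspa2*, *Maea*, *Ppp2r1a* and *Sgk1* with 0.77 to 0.73. The libraries share 6 groups and their scaling, so the values are a description. The members themselves did not share 1 pattern: over the same libraries r was -0.82 between *Jun* and *Fosl2*, -0.63 between *Jun* and *Fosl1* and -0.56 between *Jun* and *Fosb*, so their mean leaves out the opposite courses of these genes. The mean standardised level of the members was highest in CD11cloMϕ Sham replicate 2, at 1.12, and lowest in CD11chiMϕ Sham replicate 3, at -1.26. Within CD11chiMϕ Sham alone it ran from -1.26 to 0.83.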

How the data were processed

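RNA of sorted kidney macrophages was made into libraries with a low-input SMART-Seq kit and Nextera XT and sequenced as paired ends. The authors aligned the reads to mm10 with the OSA aligner, counted Ensembl genes, and deposited estimated counts, unscaled and not always whole. They also deposited log2 values, log2(TPM + 1) after quantile normalization, with low genes left out, which were used here only for levels per length. The submitters' processing notes name DESeq2.

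Counts were rounded, and lines sharing a name were summed, from 37620 lines to 34236 names. Columns were matched to samples by title, and 0 columns were left unmatched. In edgeR 4.0.16 (R 4.3.3), TMM factors, filterByExpr (minimum count 10, minimum total 15) and the two-sided quasi-likelihood test were run on the groups compared, with Benjamini-Hochberg adjustment over all genes tested and a call at an adjusted p under 0.05. Members, lists and comparisons were chosen with earlier results of these data known. Named genes were all 10 members, for each other list and comparison genes among the 3 called ones with the largest change at an average log2 CPM of at least 3, and the 10 genes of like pattern (prior count 2). A result of the list of other bZIP factors is not reported here.

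Alternatives were other size factors, library totals, no filter, DESeq2 1.42.0, 1 fit over 6 groups, a replicate block, all libraries numbered 3 left out, and each library left out. Between Sham populations, same-numbered libraries correlated in their deviations from the group means by 0.202 or more in all 9 pairs. The highest values, 0.541 to 0.644, were those of the replicate 3 libraries, which carried proximal tubule markers. In RAS 6 of 10 pairs, and between RAS and Sham 4 of 9, passed 0.1. Libraries of different numbers were not compared, so whether the numbers, from the titles, pair libraries is not known. The fits reported above were unpaired, and the replicate block was run only as an alternative. No replicate pair came within sampling noise (lowest chi-square per gene 5.29). That lowest value was of CD11chiMϕ RAS replicates 3 and 4, and the other pairs of their group were at 103 to 139. KRM RAS replicates 2 and 3 were at 10.7, against 146 and 115 with replicate 1. The sources used here do not say whether such close libraries share mice. Totals of 6891137 to 18592376 counts give small counting error except for *Fosl1* and KRM *Fosl2*. A limit of 3 counts was used where a count was 0, for counting error only, as reads carry no molecular identifiers. On simulated data the test recovered 95.5% of 200 genes changed 4-fold for RAS against Sham in KRM and 56.5% for the difference in response of KRM and CD11cloMϕ. The simulation gave every gene the same dispersion and held no outlying library. It checks the code, and it does not give the power of the test on these libraries.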

Additional observations from a re-analysis of the deposited data

Results flagged for a closer look

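In groups of 4 libraries a library was picked out where its gap to the nearest other took most of the group's range (past Dixon's 95% critical value). Of 30 groups read, 3 for each of 10 genes, 6 were picked out, where chance would give about 5 in 100 of independent readings. All 6 came from CD11chiMϕ RAS replicate 1 or CD11cloMϕ RAS replicate 3. Genes read in the same library are not independent, so that rate does not apply to them. In CD11chiMϕ RAS replicate 1 *Fos* was at 3914 CPM against 2430 to 2634 CPM in the other 3 libraries, *Jun* at 2151 CPM against 756 to 871 CPM, and *Egr1* at 1356 CPM against 744 to 805 CPM. *Atf3* in that library was at 738 CPM against 1328 to 1360 CPM. In CD11cloMϕ RAS replicate 3 *Jund* was at 813 CPM against 617 to 628 CPM and *Atf3* at 2156 CPM against 1082 to 1258 CPM.

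The column named KRM RAS replicate 1 in the deposited log2 table was left out of the levels above because it does not correspond to the count column of that name. In it *Fosb* stood at 8.66, *Fosl2* at 5.63 and *Fosl1* at 0.59 as log2(TPM + 1), against 5.26 to 6.55, 1.81 to 2.21 and 0.01 to 0.33 in KRM Sham. Which of the 2 columns holds that library was not tested.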

How the results depend on the processing

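Counts of members called by edgeR are compared with those reported above. For RAS against Sham in KRM, 2 members were called, 1 with 1 fit over all 6 groups, 0 with the replicate block, 0 without all libraries numbered 3, and 0 to 6 with each library left out. The count of all genes called went from 1247 to 1616 with no filter, 4086 under DESeq2, 42 with the replicate block and 0 without the libraries numbered 3. In the edgeR fit with that block the log2 fold change of *Fosl2* was 3.78 (adjusted p = 0.114) and that of *Jun* -1.11 (adjusted p = 0.106). RAS and Sham libraries came from different mice, so the numbers do not pair them. The cause was not tested. For CD11chiMϕ 1 member was called under DESeq2, and 0 to 1 with each library left out. For KRM against CD11cloMϕ 6 members were called, 3 with 1 fit over 6 groups and 5 to 6 with each library left out. For CD11chiMϕ against CD11cloMϕ the count of 1 became 0 with 1 fit over 6 groups, and 0 to 1 with each library left out. For the difference in response of KRM and CD11cloMϕ, 2 members were called under DESeq2 and 0 to 3 with each library left out, and among all genes 34 became 59, 77, 74 and 1404 with other size factors, library totals, no filter and DESeq2, 1 with the replicate block, 0 without the libraries numbered 3 and 0 to 2357 with each library left out. Among all genes, KRM against CD11chiMϕ gave from 89 to 1720 calls over these settings against 635, and CD11chiMϕ against CD11cloMϕ from 0 to 1897 against 184. No called log2 fold change of a member changed sign under any setting run. Scaling to library totals moved the members' differences in response by a median of 0.20 for KRM minus either population, and their other log2 fold changes by 0.08 or less. The block changed no other call of a member. Depth limits *Fosl1*, which had 0 counts in 5 libraries, and 3 or 4 libraries per group limit the rest.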
